A study of Bos taurus with 48 samples.

Results

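The genes described here are 131 genes of the bovine leukocyte count table. Their read counts, scaled to library totals, rose in every weaned calf between d 0 and d 1 of weaning at housing. They were chosen on CPM, the counts of a gene scaled to the total counts of its library, without further scaling. Of 25669 genes in the table, 18206 had a count and 10262 had a mean of at least 5 CPM over the 48 libraries. Of these, 449 were higher on d 1 than on d 0 in all 6 weaned calves, which is 4.38% of the genes at that level, and 212 of the 449 rose by a mean of at least 0.5 in log2(CPM + 1). A further 80 were removed because they were lower on d 7 than on d 0 in all 6 control calves, and 1 was left out by identifier, which left the 131. The weaned d 0 and d 1 libraries therefore chose the genes, and the control d 0 and d 7 libraries took part in the choice. The other libraries entered only through the mean of at least 5 CPM over the 48 libraries. Values of the 131 genes from weaned d 0 and d 1 and control d 0 and d 7 are given as a description without a test. The exception is control d 1 against d 0, for which fitted values are given. For weaned d 1 against d 0, fits are given only for genes outside the set and for all genes tested.

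Total leukocytes were taken from the blood of intact male Simmental beef calves. On d 0, before housing, all calves were still with their dams on pasture. From then on, 6 calves lost contact with the cow and shared a pen with calves treated alike (weaned calves), and 6 went indoors together with the cow (control calves), so that both treatments were housed and only 1 was weaned. Each calf gave a library on d 0, 1, 2 and 7, which makes 8 groups of 6 calves, each calf a separate animal followed over time.

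Blood leukocytes are a mixture of neutrophils, lymphocytes, monocytes and eosinophils, and separation of a calf from its dam is a stressor that changes both their numbers and their gene expression. Immediate early genes such as those of the FOS family encode subunits of the AP-1 transcription factor and are transcribed within minutes of many stimuli, handling of the cells included. Receptors such as KLRK1 and CD226 are carried by natural killer cells and T cells and recognise ligands on stressed or infected cells. In such bulk samples, fewer cells of a type and less RNA per cell cannot be told apart.

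Of the 131 genes, 22 could be given a symbol through the gene lists of the study and 109 could not, so the named genes are a small share of the set. Total counts were 1662995 to 4256011 per library (median 3600161), so 3 counts, taken as the smallest number told from none, were 0.705 to 1.80 CPM. The 131 genes had mean levels of 5.07 to 318 CPM, with a median of 16.6 CPM, and the median gene had 50 counts in a library. These depths cover counting error only, and the calves of a group differed by more. Genes that could mark the cell types were mostly without a symbol: 3 of 18 listed neutrophil markers, 1 of 12 T cell markers and 0 of 10 B cell and 0 of 8 monocyte markers were found, so the labelled cell type could not be checked further.

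In the libraries that chose them, the 131 genes rose by a median of 0.63 in log2(CPM + 1) between d 0 and d 1 in weaned calves, from 0.505 for the gene nearest the threshold to 1.14 for ENSBTAG00000004950, which has no symbol. The nearest gene outside the threshold rose by 0.498. Among genes with a symbol, CEP135 (0.55) and SMC3 (0.57) were the nearest inside, and GPR4 (0.38) and CEP70 (0.36) the nearest outside. ABCA1 rose most of the named genes (1.10), followed by KLRK1 (0.99), THBS1 (0.91), FOSB (0.87) and TLR10 (0.82). The same step had a median of 0.023 over all 10262 genes.

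The mean log2(CPM + 1) of the 131 genes, used below as their level in a library, went from 3.89 ± 0.353 (SD, n = 6) on d 0 to 4.55 ± 0.436 on d 1 in weaned calves, followed by 4.27 ± 0.693 on d 2 and 4.22 ± 0.766 on d 7. Control calves had 4.28 ± 0.490 (SD, n = 6), 4.10 ± 0.744, 3.95 ± 0.245 and 3.62 ± 0.301 on the same days. The treatments overlapped on every day. On d 0, before any calf was weaned, 126 of the 131 genes had a lower mean in the calves that were to be weaned than in the control calves, with a median difference of -0.40, and on d 1 129 had a higher mean, with a median difference of 0.45. Both differences contain the libraries that chose the genes, and on neither day was any of the 131 higher in every weaned calf than in every control calf, beside 0.0487% of all genes on d 0 and 0.0585% on d 1.

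**Figure D1:**
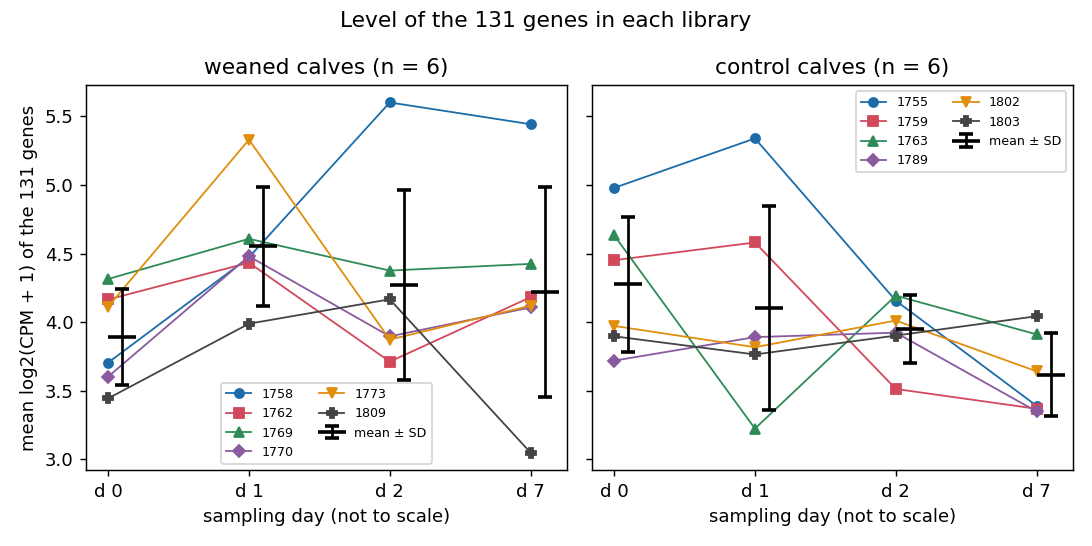
Mean log2(CPM + 1) of the 131 genes (vertical axis) on each sampling day (horizontal axis) in 6 weaned calves (left) and 6 control calves (right). Lines join the libraries of 1 calf and the black bars give the mean and SD of the group. All weaned lines rise from d 0 to d 1 by the choice of the genes, calf 1758 stands above the other weaned calves on d 2 and d 7, and control calf 1763 falls on d 1 and returns on d 2.

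The size of the rise differed between weaned calves. The level rose by 1.22 in calf 1773, by 0.88 in calf 1770, by 0.77 in calf 1758 and by 0.54 in calf 1809, but only by 0.29 in calf 1769 and 0.27 in calf 1762. The calves also went different ways after d 1. In calf 1758 the level rose further, to 1.90 above d 0 on d 2, with 129 of the 131 genes above d 0. In calf 1773 it fell back by 1.46 between d 1 and d 2, and only 29 genes were then above d 0. In calf 1809, 129 genes were above d 0 on d 2 but only 27 on d 7.

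The d 7 libraries labelled 1758 and 1770 were each nearer to the other calf than to the calf on the label. Over the 300 genes outside the set that differed most consistently between calves on d 0 to 2, the library labelled 1758 d 7 followed the earlier libraries of calf 1770 (r = 0.67) rather than those of calf 1758 (r = 0.25), and the library labelled 1770 d 7 followed calf 1758 (r = 0.60) rather than calf 1770 (r = 0.23). The other 10 d 7 libraries followed their own calf, with r between 0.61 and 0.90. Both libraries had r below 0 with the other 4 weaned calves, between -0.36 and -0.074. The level of the 131 genes, which also moved between days within a calf, ran with the labels. It was 5.60 on d 2 and 5.44 on d 7 in calf 1758 and 3.90 and 4.11 in calf 1770. These values do not settle which calf each of the 2 libraries came from. These are correlations across genes, which are not independent replicates. Both calves were weaned, so comparisons of groups do not depend on which of these libraries belongs to which calf, but d 7 changes within these calves do. The d 2 libraries were part of the earlier libraries, so their labels were not checked in this way.

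The control calves, housed but not weaned, show the same genes over the same day. Their d 1 libraries entered the choice of the genes only through the mean CPM. The level changed by -1.41 in calf 1763, -0.16 in calf 1802, -0.13 in calf 1803, 0.13 in calf 1759, 0.17 in calf 1789 and 0.36 in calf 1755, which is -0.17 ± 0.636 (SD, n = 6). By gene, the mean change was below 0 in 112 genes and above 0 in 19, with a median of -0.19 against -0.0072 over all 10262 genes. None of the 131 rose or fell in all 6 control calves, beside 1.65% of all genes at that level that rose and 1.76% that fell in all 6. Such shares amount to few of 131 genes, so the 0 is not read as a difference. The fit of edgeR compares group means of counts after TMM scaling. Its SE and p, here and below, do not use the pairing of days within a calf unless calf is a block. In this fit, the median log2 change of the 131 genes was -0.051. None passed an adjusted p of 0.05, as in all 13934 genes tested (0.0%), and none passed an unadjusted p of 0.05, against 0.438% of all genes tested that were higher at that level and 0.33% that were lower.

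The direction in control calves rested on calf 1763. This was the only control calf whose d 0 and d 1 libraries were sequenced on different flowcells, and 125 of the 131 genes were lower in it on d 1. Without it, that is in the 5 control calves with both days on 1 flowcell, the median log2 change was 0.14, with 99 genes above 0, and with flowcell as a term it was 0.10, with 11 genes higher and 2 lower at an unadjusted p of 0.05. With calf as a block it was -0.14, with 0 genes higher and 2 lower. Among weaned calves, the d 0 and d 1 libraries of calf 1809 alone were on different flowcells, and without it the rule chose 150 genes, which include 124 of the 131. Of the 80 genes removed for falling in the control calves by d 7, which rose by a median of 0.61 in weaned calves between d 0 and d 1, the median log2 change in control calves over that day was -0.12, and 0 passed an unadjusted p of 0.05.

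**Figure D2:**
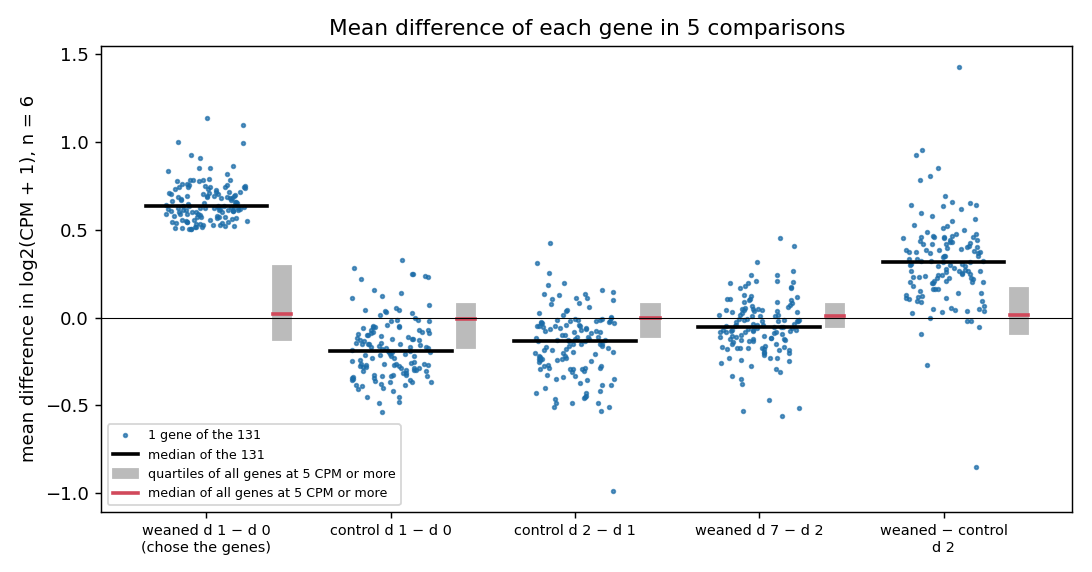
Mean difference in log2(CPM + 1) (vertical axis, n = 6 calves a group) of each of the 131 genes (blue points) in the comparison that chose them and in 4 others (horizontal axis), with the median of the 131 as a black line. Grey boxes give the quartiles and red lines the median of all 10262 genes with a mean of at least 5 CPM. The medians of the 131 are 0.63, -0.19, -0.14, -0.053 and 0.32 from left to right.

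On d 2 the libraries of both treatments entered the choice only through the mean CPM. The weaned calves could be compared with the control calves on that day. The 131 genes were higher in weaned calves by a median log2 change of 0.47, with 127 above 0 and 4 below. None passed an adjusted p of 0.05, as in all 13949 genes tested (0.0%). At an unadjusted p of 0.05, 12 were higher and 0 lower, which is to be read against 2.47% of all genes tested that were higher and 0.903% that were lower. The 80 removed genes had a median of 0.50, with 80 of 80 above 0. The difference rested on calf 1758. Without it the median of the 131 was 0.012 and 4 genes were higher at an unadjusted p of 0.05, and with flowcell as a term the median was 0.019 with 7 genes higher. No control d 2 library was on the flowcell of the d 2 library of calf 1758. With flowcell as a term, that library thus adds nothing to the difference between treatments, so the 2 fits are not separate checks. The calves of the 2 treatments share no number, so no pairing enters this comparison.

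Between d 2 and d 7 in weaned calves, the 131 genes had a median log2 change of -0.087, with 30 above 0 and 101 below. No gene of the 131 or of all 14109 tested passed an adjusted p of 0.05 (0.0%). At an unadjusted p of 0.05, 0 were higher and 1 was lower, beside 0.234% of all genes tested in each direction. Without calf 1809, in which all but 1 of the 131 genes were lower on d 7, the median was 0.014, and without calves 1758 and 1770, whose d 7 libraries each resembled the other calf, it was -0.088. With calf as a block, it was -0.078, with 1 gene higher and 3 lower. In control calves between d 1 and d 2 the median log2 change was -0.33, with 18 genes above 0 and 113 below, 1 higher and 0 lower at an unadjusted p of 0.05 (0.303% and 0.735% of 13880 genes tested) and none at an adjusted p of 0.05 (0.0%). Without control calf 1755, whose level fell by 1.18, that median was 0.080, and with flowcell as a term it was 0.00094. Both libraries of control calf 1759 over these days were alone on their flowcells, so the term leaves that calf out.

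Within a library, most of the 131 genes went up and down together. The 4 groups that entered the choice only through the mean CPM were control d 1 and d 2 and weaned d 2 and d 7. Each of their 24 libraries was taken as its difference from the group mean. Over these, Pearson's r of a gene with the mean of the others had a median of 0.92, and 102 of the 131 had r of at least 0.8. Of all 10262 genes, 23.8% had such an r with the mean of the 131, and of the 80 genes removed for the control calves 92.5% had, with a median r of 0.95, against 77.9% of the 131. The points come from 12 calves and share library, depth and flowcell, so these values are a description. SMC3, CEP290, CENPE, KLRK1, TLR10 and CD226 lay among the 102. Of the 22 genes with a symbol, 17 had r of at least 0.8. FOSB (r = -0.39), FOS (r = -0.0085) and THBS1 (r = 0.31) were among those below it.

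**Figure D3:**
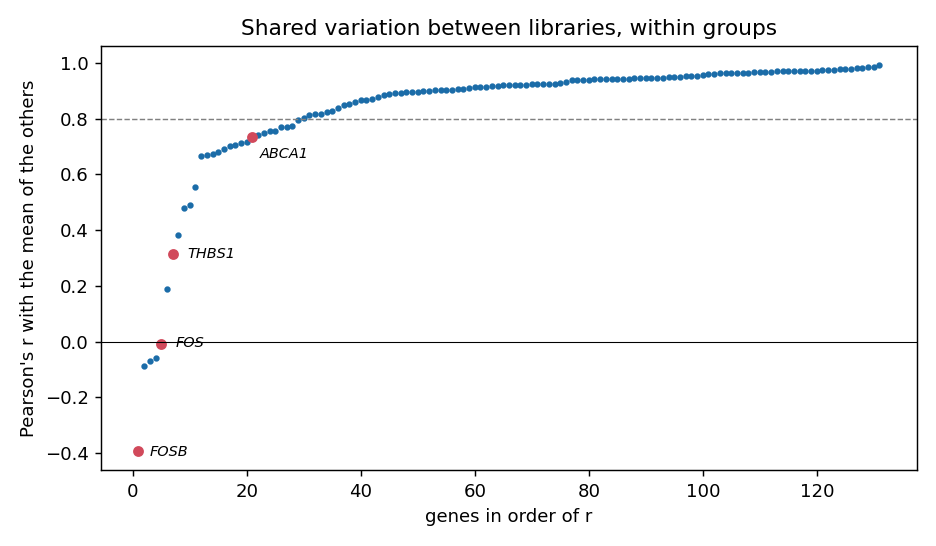
Pearson's r (vertical axis) of each of the 131 genes with the mean of the other genes of the set, over 24 libraries within their groups, with genes in order of r (horizontal axis) and the dashed line at 0.8. 102 points lie at or above the line, and FOSB, FOS and THBS1 lie among the lowest 7. ABCA1 is also marked in red.

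The level also moved with the number of genes detected. Libraries had 12919 to 14950 genes with at least 1 count, and over the 48 libraries the level had a Pearson's r of 0.82 and a Spearman's rho of 0.86 with that number, and a Pearson's r of 0.49 with total counts. Each calf gave 4 of the libraries, so these values are a description. In 29 of 36 steps between neighbouring days of a calf, both went the same way. From d 0 to d 1 the mean number of genes detected went from 14117.5 to 14384.5 in weaned calves, higher in 5 of 6, and from 14145 to 14125.5 in control calves, higher in 5 of 6 as well. It was 13548 in the d 1 library of control calf 1763, and 14905 and 14950 in the libraries labelled 1758 on d 2 and d 7. The part of detection in the rise of the 131 genes was not tested.

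**Figure D4:**
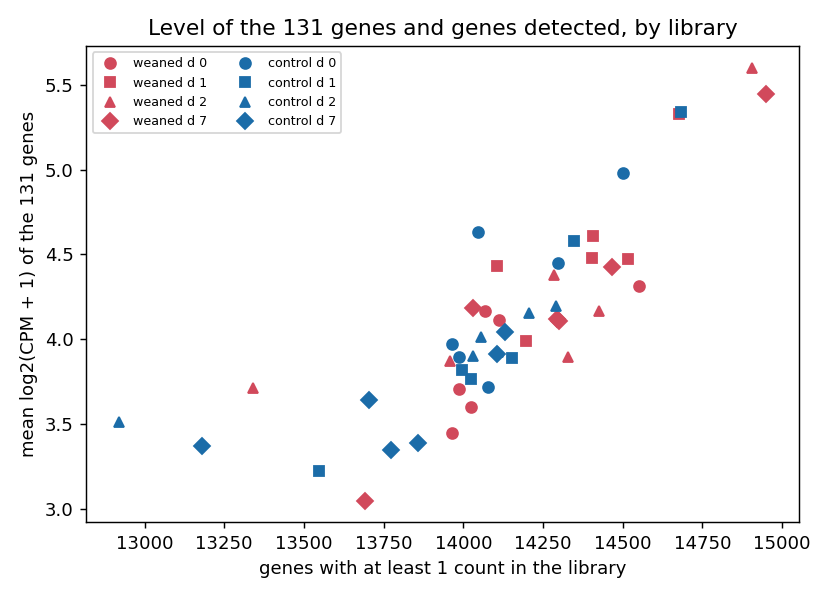
Mean log2(CPM + 1) of the 131 genes (vertical axis) against the number of genes with at least 1 count (horizontal axis) in each of 48 libraries, with colour for treatment and symbol for day. Libraries with more genes detected have a higher level of the 131 genes in both treatments (r = 0.82).

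The few cell type markers with a symbol differed widely between calves. TRAT1, an adaptor of the T cell receptor and the 1 T cell marker found, had 15.9 to 51.7 CPM in weaned calves on d 0 and 25.6 to 78.1 CPM on d 1, with means of 30.0 ± 12.6 and 44.3 ± 20.1 CPM (SD, n = 6), and was higher on d 1 in 4 of 6 calves. KLRD1, the 1 natural killer cell marker found of 9, had 2.73 to 9.34 CPM and 1.49 to 24.7 CPM on the same days, with means of 4.89 ± 2.43 and 8.86 ± 8.93 CPM (SD, n = 6), and was also higher in 4 of 6. The 3 neutrophil markers found (CAMP, PGLYRP1 and ALPL, with 5 identifiers) summed to 40.6 to 107 CPM on d 0 and 30.4 to 273 CPM on d 1, higher in 3 of 6. The 2 eosinophil markers found of 8 summed to 105 to 247 CPM on d 0 and 143 to 351 CPM on d 1, and the 3 erythroid markers found of 8 to 9.21 to 20.1 CPM and 6.76 to 68.0 CPM. The eosinophil sum was higher on d 1 in 4 of 6 weaned calves and the erythroid sum in 2 of 6. Over the same days in control calves, TRAT1 had 16.6 to 53.3 and 11.5 to 73.6 CPM and was higher in 3 of 6. KLRD1 had 2.17 to 16.1 and 0.988 to 13.9 CPM (higher in 2 of 6), and the neutrophil markers 42.7 to 196 and 39.4 to 197 CPM (4 of 6). The eosinophil sum was 116 to 382 and 89.9 to 445 CPM (3 of 6), and the erythroid sum 4.77 to 13.1 and 2.21 to 16.3 CPM (5 of 6). None of these lists was at 0, and the part of cell composition in the rise was not tested.

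FOS and FOSB, the immediate early genes of the set, kept apart from the rest. FOSB had 18.4, 25.6 and 38.1 CPM (lowest, median and highest of 6 calves) on d 0 in weaned calves, 30.3, 48.5 and 65.0 CPM on d 1, 40.6, 43.2 and 77.2 CPM on d 2 and 19.7, 37.9 and 53.4 CPM on d 7. In control calves it had 18.0, 24.01 and 29.9 CPM on d 0, 19.5, 27.5 and 46.4 CPM on d 1, 16.9, 27.3 and 47.5 CPM on d 2 and 34.6, 70.1 and 141 CPM on d 7. On d 2, control calf 1759 lay within the range of the weaned calves and the other 5 control calves lay below every weaned calf. The log2 change between treatments on d 2 was 0.72 (SE 0.29, adjusted p = 0.95 by edgeR, unadjusted p = 0.0251), and 0.55 to 0.96 over the alternatives. The exact two-sided permutation test gave p = 0.0217, and 0.994 after adjustment over 88 such tests of named genes.

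In control calf 1763, FOSB had 22.8 CPM on d 0 and 46.4 CPM on d 1, when 125 of the 131 genes were lower. It had the largest mean difference of the 131 genes between d 0 and d 7 in control calves, 1.44 in log2(CPM + 1) and above 0 in all 6 calves, and was also higher on d 7 than on d 2 in all 6, by 1.28. Over all genes, 8.2% were higher on d 7 than on d 0 in all 6 control calves, and 3 of the 131 were. The weaned mean of FOSB was highest on d 1, at 49.4 ± 11.8 CPM (SD, n = 6), and the control mean on d 7, at 72.8 ± 36.8 CPM (SD, n = 6).

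FOS had 66.1, 100 and 171 CPM (lowest, median and highest) in weaned calves on d 0, 111, 163 and 270 CPM on d 1, 69.9, 209 and 241 CPM on d 2 and 106, 171 and 202 CPM on d 7. Over the same days control calves had 61.3, 102 and 207 CPM, then 53.6, 127 and 255 CPM, 86.0, 158 and 203 CPM, and 92.9, 187 and 543 CPM. The treatments overlapped on all 4 days. In control calves between d 0 and d 1, FOS had a log2 change of 0.32 (SE 0.35) and FOSB of 0.30 (SE 0.23), the smallest p of the named genes above 0 and both at an adjusted p of 0.999 by edgeR. Between d 1 and d 2 in control calves FOS (0.13, SE 0.33, unadjusted p = 0.687 by edgeR) and FOSB (0.0053, SE 0.32, unadjusted p = 0.987 by edgeR) were the only named genes above 0. On d 2, FOS had a log2 change between treatments of 0.24 (SE 0.28, adjusted p = 0.95 by edgeR).

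THBS1, which encodes thrombospondin-1, a matrix glycoprotein released by platelets and monocytes, was a further named gene with a low r with the rest of the set. In weaned calves it had 59.3, 92.1 and 137 CPM (lowest, median and highest) on d 0, 72.9, 202 and 252 CPM on d 1, 15.4, 178 and 215 CPM on d 2 and 49.6, 124 and 149 CPM on d 7. The control values were 12.8, 126 and 164 CPM, 35.2, 115 and 185 CPM, 8.44, 66.1 and 147 CPM, and 79.2, 91.4 and 136 CPM. On d 2 the weaned calves other than 1762 lay at 164 CPM or more, above every control calf, and calf 1762 lay at 15.4 CPM, within the control range. The log2 change between treatments on d 2 was 1.25 (SE 0.56, adjusted p = 0.95 by edgeR, exact permutation p = 0.143), and 1.03 to 2.07 over the alternatives.

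THBS1 was lower on d 7 than on d 1 in all 6 weaned calves, by a mean of 0.82 in log2(CPM + 1), as were 4 of the 131 genes and 0.858% of all genes. That step contains d 1 libraries that chose the gene. Between d 2 and d 7, which the rule used only in the mean CPM, the log2 change of THBS1 in weaned calves was -0.58 (SE 0.43, adjusted p = 1.00 by edgeR) and that of FOSB was -0.39 (SE 0.24). These were the named genes with the smallest p below 0 in that comparison, while CENPE (0.27, SE 0.56) and CEP290 (0.18, SE 0.55) had the smallest p above 0. None of these passed an unadjusted p of 0.05.

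**Figure D5:**
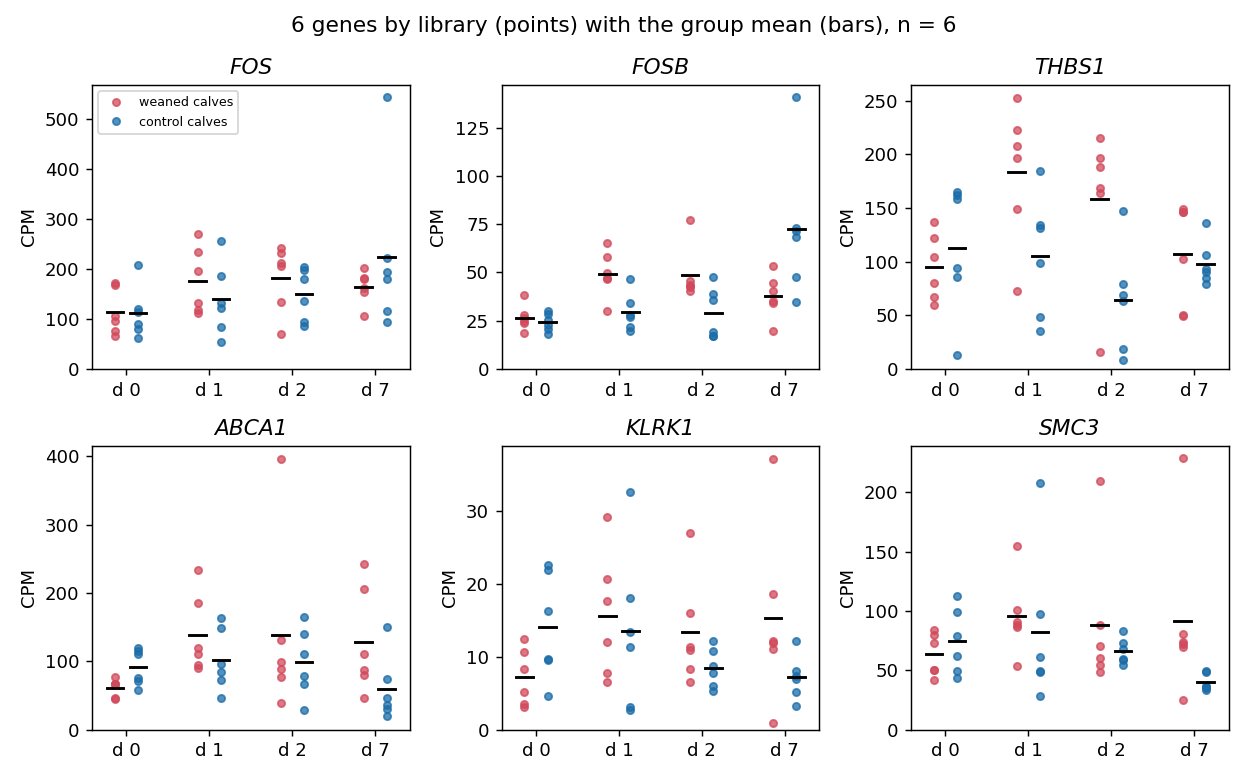
CPM (vertical axis, from 0) of 6 of the 131 genes on each sampling day (horizontal axis) in 6 weaned calves (red) and 6 control calves (blue), with black bars at group means. FOS and FOSB have their highest control mean on d 7, whereas ABCA1 and SMC3 have 1 weaned calf far above the others on d 2 or d 7. In KLRK1 the libraries labelled 1758 are the highest of the weaned calves on d 2 and d 7.

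ABCA1, which encodes a transporter that exports cholesterol and phospholipid from the cell, had 45.0, 66.3 and 77.2 CPM (lowest, median and highest) in weaned calves on d 0 and 89.7, 115 and 233 CPM on d 1, so that the days did not overlap. That step chose the gene. It had 38.8, 94.4 and 397 CPM on d 2 and 47.0, 98.8 and 242 CPM on d 7. Control calves had 58.1, 93.9 and 119 CPM on d 0, 45.8, 90.3 and 163 CPM on d 1, 29.5, 94.9 and 165 CPM on d 2 and 20.1, 41.2 and 150 CPM on d 7. The highest weaned value on d 2 was that of calf 1758, and the log2 change between treatments on d 2 was 0.46 (SE 0.45, adjusted p = 0.95 by edgeR), and ran from -0.21 to 0.69 over the alternatives.

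KLRK1, the activating receptor NKG2D, had 3.17, 6.69 and 12.4 CPM (lowest, median and highest) on d 0 in weaned calves, 6.55, 14.8 and 29.1 CPM on d 1, 6.52, 11.1 and 27.0 CPM on d 2 and 0.876, 12.03 and 37.1 CPM on d 7. In the control calves, its values were 4.62, 13.0 and 22.5 CPM on d 0, 2.63, 12.4 and 32.5 CPM on d 1, 5.28, 8.25 and 12.2 CPM on d 2 and 3.27, 7.14 and 12.2 CPM on d 7. The treatments overlapped on every day. KLRK1 and FOSB were the genes with a symbol that were also above d 0 on d 2 in all 6 weaned calves. Of the 131 genes, 4 were, beside 0.546% of all genes, in a step that shares the d 0 libraries of the rule.

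CD226, an activating adhesion receptor of natural killer and T cells, had 8.27, 16.3 and 17.4 CPM (lowest, median and highest) on d 0, 18.7, 19.2 and 43.2 CPM on d 1, 13.0, 17.4 and 49.1 CPM on d 2 and 8.76, 17.0 and 59.6 CPM on d 7 in weaned calves. In control calves it had medians of 18.2, 16.9, 14.5 and 9.77 CPM. The highest library of each weaned group after d 0 stood far above the others, calf 1773 on d 1 and calf 1758 on d 2 and d 7. STAP1, an adaptor protein of B cells and other blood cells, had medians of 5.52, 8.74, 6.19 and 7.07 CPM in weaned calves and of 8.34, 5.72, 6.67 and 2.84 CPM in control calves.

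TLR10, a Toll-like receptor of B cells, had 2.59, 13.7 and 19.1 CPM (lowest, median and highest) on d 0, 6.00, 18.6 and 45.5 CPM on d 1, 7.45, 11.7 and 55.7 CPM on d 2 and 2.92, 14.6 and 36.6 CPM on d 7 in weaned calves, and medians of 25.8, 19.1, 16.5 and 10.5 CPM in control calves. It was the 1 gene of the set on a list of 26 pattern recognition genes, of which 4 were found in the table. The other 3 were TLR3, TLR7 and CLEC7A. From d 0 to d 1 in weaned calves the log2 changes of these 3, which are not in the set, were 0.64 (SE 0.29), 0.70 (SE 0.30) and 1.04 (SE 0.54), each at an adjusted p of 0.423 by edgeR. Of the 14038 genes tested over that day, 0 passed an adjusted p of 0.05, and 6.07% were higher and 4.3% lower at an unadjusted p of 0.05.

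Of the other genes with a symbol, CENPE encodes a motor protein of the kinetochore, SMC3 a subunit of the cohesin ring, CEP135 a protein of the centriole and CEP290 a protein of the centrosome and the base of the cilium. SMC3 had 41.8, 61.9 and 84.2 CPM (lowest, median and highest) on d 0, 53.5, 89.2 and 155 CPM on d 1, 48.4, 65.4 and 209 CPM on d 2 and 25.4, 73.2 and 229 CPM on d 7 in weaned calves. The control values were 43.8, 70.7 and 113 CPM, 28.6, 55.6 and 208 CPM, 54.5, 63.96 and 82.9 CPM, and 33.6, 36.5 and 49.7 CPM. SMC3 was lower on d 7 than on d 2 in all 6 control calves, as were 18 of the 131 genes and 9.3% of all genes.

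CENPE had medians of 5.91, 9.20, 5.97 and 7.07 CPM on the 4 days in weaned calves and 11.4, 7.44, 6.25 and 4.80 CPM in control calves. CEP290 had medians of 14.3, 20.2, 13.0 and 18.3 CPM and 18.6, 14.1, 14.4 and 10.3 CPM, and CEP135 medians of 10.3, 13.5, 10.1 and 11.4 CPM and 11.7, 7.94, 6.84 and 6.49 CPM. In each of these genes, the weaned median was below the control median on d 0 and above it on d 1, the days that chose the genes. USP1, a deubiquitinase of DNA repair proteins, had medians of 37.8, 60.5, 42.0 and 45.6 CPM in weaned calves and 58.2, 44.5, 41.0 and 29.2 CPM in control calves.

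Among genes of signalling and transport, LPAR6, a receptor of lysophosphatidic acid, and PIK3C2A, a lipid kinase of membrane traffic, had the smallest p of the named genes on d 2. LPAR6 had 15.1, 22.4 and 70.0 CPM (lowest, median and highest) in weaned calves and 10.8, 16.6 and 20.1 CPM in control calves on that day. The log2 change was 0.87 (SE 0.32, adjusted p = 0.95 by edgeR, exact permutation p = 0.0346), which ran from 0.41 to 1.03 over the alternatives. PIK3C2A had 23.0, 25.9 and 119 CPM against 13.2, 19.6 and 26.4 CPM. Its log2 change was 1.05 (SE 0.38, adjusted p = 0.95 by edgeR, exact permutation p = 0.0346), which ran from 0.40 to 1.20. Both overlapped between treatments. After adjustment over 88 tests, both permutation values were 0.994. In control calves between d 1 and d 2 the same genes had the smallest p below 0, with log2 changes of -0.56 (SE 0.33) and -0.75 (SE 0.43).

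The remaining named genes of signalling and transport were SLC26A2, a sulphate transporter, GNAT2, a G-protein subunit known from cone photoreceptors, and MAP4K3, a protein kinase of stress and nutrient signalling. They rose by 0.79, 0.61 and 0.58 in the step that chose them. SLC26A2 had the smallest p of the named genes below 0 in control calves between d 0 and d 1, with a log2 change of -0.41 (SE 0.44, adjusted p = 0.999 by edgeR), followed by DLD, a subunit of mitochondrial dehydrogenase complexes, at -0.14 (SE 0.34). DLD was above 0 without calf 1763, at 0.044.

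Of the genes of transcription and RNA export, GTF2A1, a subunit of the general transcription factor TFIIA, had 15.99 ± 4.96 CPM (SD, n = 6) on d 0 and 29.1 ± 13.9 CPM on d 1 in weaned calves, and THOC1, a subunit of the THO complex that couples transcription to mRNA export, had 17.3 ± 6.26 and 29.7 ± 15.0 CPM. In control calves GTF2A1 had 25.04 ± 11.2 and 23.6 ± 20.4 CPM, and THOC1 23.6 ± 10.8 and 24.1 ± 16.8 CPM. ENAH, an actin regulator of the Ena/VASP family, had 5.48 ± 1.76 and 8.83 ± 2.47 CPM (SD, n = 6) in weaned calves and 6.33 ± 4.58 and 6.29 ± 7.41 CPM in control calves, where 1 d 2 library had no count.

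By group means, most of the 131 genes had the same course. In weaned calves, d 1 had the highest group mean in 124 genes, d 2 in 4 and d 7 in 3. All 131 had their lowest mean on d 0. The rule used both d 0 and d 1 of these calves, so a low d 0 and a high d 1 were built into the choice. In control calves, 110 had their highest mean on d 0 and 115 their lowest on d 7. The change from d 1 to d 2 in weaned calves had a median of -0.28 in log2(CPM + 1) and was below 0 in 127 genes. Over all genes the median was -0.049, with 62.1% below 0. In all 6 calves, 0 of the 131 genes were lower, beside 0.828% of all genes. That step contains the d 1 libraries that chose the genes, so the fall is given as a description. On d 7, the weaned calves had a median difference from the control calves of 0.67, with 123 genes above 0. It contains the control d 7 libraries of the rule, and 0 of the 131 genes separated all weaned from all control calves, beside 0.322% of all genes that were higher in every weaned calf.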

How the data were processed

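RNA of total leukocytes from 6 weaned and 6 control calves on d 0, 1, 2 and 7 was sequenced as 48 libraries. According to the submitters' processing notes and the study's methods, reads were base-called with CASAVA 1.6, checked with FastQC 0.9.1, aligned with Bowtie 0.12.7 to the bovine genome Btau4.0 without mismatches, reduced to 1 read per position and counted per Ensembl gene with HTSeq 0.4.6p2, and compared with edgeR 1.6.12. The deposited values are raw counts, without normalisation. Keeping 1 read per position can compress high counts, and whether strand was used is not given in the sources used here.

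The 131 genes and the gene lists were chosen with earlier results of these data known. Groups and calf numbers come from the sample labels. The comparisons used R 4.3.3 and edgeR 4.0.16 (TMM scaling, at least 10 counts over the 12 libraries compared, quasi-likelihood test, Benjamini-Hochberg adjustment over all genes tested), without a block. On simulated data for control d 1 against d 0 (13934 genes), the fit called 67% of 100 genes changed 2-fold and 92% of 100 changed 4-fold, with 12 false calls. These shares are not for the 131 genes, whose named members had an SE of 0.23 (FOSB) to 0.57 (ENAH) in the real fit. The absence of calls is therefore not read as an absence of 2-fold changes in them. Alternatives were RLE size factors, no filter, filterByExpr, DESeq2 1.42.0, flowcell as a term, calf as a block and each calf left out. Libraries of the same number come from the same calf, by the labels, and the deviations of the 2 libraries of a calf from their group means correlated on average at 0.50 for control d 0 and d 1, 0.27 for control d 1 and d 2 and 0.50 for weaned d 2 and d 7. Single genes were compared by exact two-sided permutation of signs within calves or of calf labels, where the smallest possible p is 0.0312 and 0.00216. Named genes are those with a symbol that had 1 of the 10 largest rises, stood on a gene list, had 1 of the 2 smallest p per direction in a comparison, lay next to the threshold or had 1 of the 3 highest mean CPM. STAP1, CD226, USP1, GNAT2, MAP4K3 and ENAH, the other genes with a symbol, and ENSBTAG00000004950 fall outside this rule and were named after their values were seen. Python 3.11.15 with numpy 2.4.6, pandas 2.3.3, scipy 1.17.1 and matplotlib 3.10.9 was used for the rest. No genome of the build was used here, so sequences, positions, GC content and gene length are not given.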

Additional observations from a re-analysis of the deposited data

Results flagged for a closer look

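In groups of 6 calves, a library was taken as far from the others when its gap to the nearest, as a share of the range, exceeded Dixon's 95% critical value, which chance gives in about 1 in 20 groups. For the level of the 131 genes and 12 named genes, 104 groups were examined, and 18 had such a library. At 1 in 20, chance would give about 5.2. The groups are not independent, since most of the genes move together within a library. The 12 genes include STAP1, CD226 and USP1, which were named after their values were seen. Their CPM were not log-transformed, and the critical value holds for normally distributed values. The 18 beside 5.2 are therefore a description and not a test.

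Of these, 8 were the library of calf 1758 on d 2. The level of the 131 genes was 5.60 there, against 4.38 in the next highest weaned calf. The named genes were ABCA1 at 397 CPM (next 131), SMC3 at 209 CPM (next 88.4), USP1 at 152 CPM (next 51.8), LPAR6 at 70.0 CPM (next 32.9), TLR10 at 55.7 CPM (next 20.7), CD226 at 49.1 CPM (next 22.3) and STAP1 at 21.9 CPM (next 7.06).

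A further 4 were the library labelled 1758 on d 7, one of the pair that resembled each other's calf. It had SMC3 at 229 CPM (next 80.8), USP1 at 139 CPM (next 55.0), CD226 at 59.6 CPM (next 19.6) and CENPE at 34.4 CPM (next 10.5).

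The other 6 were spread over calves. CD226 was 43.2 CPM in calf 1773 on d 1 (next 25.1) and FOSB 77.2 CPM in calf 1773 on d 2 (next 45.8). THBS1 was 15.4 CPM in calf 1762 on d 2, below 164 CPM in the next lowest weaned calf. In control calves on d 7, calf 1759 had FOS at 543 CPM (next 221) and FOSB at 141 CPM (next 73.1), in a library of 1992050 counts. USP1 was 55.2 CPM in control calf 1763 on d 2 (next 42.7).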

How the results depend on the processing

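In the 4 comparisons other than weaned d 1 against d 0, 0 of the 131 passed an adjusted p of 0.05 under any alternative run. Of these, control d 1 against d 0 contains the control d 0 libraries, which took part in the choice. With calf as a replicate block, the control d 1 against d 0 comparison had 2 genes lower at an unadjusted p of 0.05, the control d 2 against d 1 comparison 1 lower, and the weaned d 7 against d 2 comparison 1 higher and 3 lower. Flowcell as a term gave 11 higher and 2 lower for control d 1 against d 0, 2 higher for control d 2 against d 1, 7 higher in the d 2 comparison of treatments, and 1 higher and 3 lower for weaned d 7 against d 2, where flowcell and calf coincide. In the 2 control comparisons each flowcell also held 1 calf only. There the term acts as a calf block without the calf whose days were on different flowcells. In control calves between d 1 and d 2, DESeq2 and the fit without a filter each gave 1 gene lower. The fit without calves 1758 and 1770, added after the data were seen, gave 0 lower between d 2 and d 7. When calves were left out singly, the median log2 change ran from -0.29 to 0.14 (control d 1 against d 0), -0.51 to 0.080 (control d 2 against d 1), 0.012 to 0.61 (weaned against control on d 2) and -0.13 to 0.014 (weaned d 7 against d 2). The number lower at an unadjusted p of 0.05 ran from 0 to 4 in the first, the number higher from 0 to 1 and lower from 0 to 8 in the second, the number higher from 4 to 21 and lower from 0 to 1 in the third, and the number lower from 0 to 2 in the last. Among named genes, DLD in control calves on d 1 turned to 0.044 without calf 1763 (also the fit of calves on 1 flowcell; -0.31 to 0.044 without single calves) and 0.0025 with flowcell as a term. FOSB in control calves between d 1 and d 2 turned to -0.058 with the replicate block and -0.22 with flowcell, and ran from -0.19 (without calf 1759) to 0.13 without single calves, with -0.058 without calf 1802. CENPE in weaned calves between d 2 and d 7 ran from -0.095 (without calf 1758) to 0.38 without single calves and was -0.18 without calves 1758 and 1770. From d 0 to d 1 in weaned calves, 0 genes of all tested passed an adjusted p of 0.05 in the main fit, 4 with DESeq2 and 2 with the block. The rule chose 210 genes with the control exclusion left out, and 87 to 405 with each weaned calf left out (405 without calf 1762, 395 without calf 1769 and 87 without calf 1773), which both leaves fewer calves that have to rise and changes the mean rise. On TMM-scaled CPM it chose 133 genes, of which 111 were among the 131. The cause of the other changes was not tested. The median gene of the 131 had 50 counts in a library, which limits the precision of the genes below it.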
